A study of Neogale vison with 6 samples.

Results

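The regulators of the unfolded protein response and of the integrated stress response were followed in mink lung cells with and without cholesterol depletion (CD). The set is 10 genes chosen by name: ATF3, ATF4, ATF6, XBP1, ERN1, EIF2AK3, DDIT3, TRIB3, ASNS and CHAC1. Of these, 9 were found by symbol among the 24526 genes of the count table, and all 9 had enough reads to be among the 12148 genes tested. No row of the table carries the symbol TRIB3, so this gene was not analysed here. The cells were Mv1Lu, an epithelial line from mink lung. RNA was sequenced from 3 libraries of untreated cells (control) and 3 libraries of cells kept for 16 h with 50 μM lovastatin, a statin that blocks HMG-CoA reductase, 50 μM mevalonate, the product of that enzyme, and 10% lipoprotein-deficient serum. The statin, the mevalonate and the change of serum came together in the CD group, so their separate effects cannot be told apart.

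Misfolded proteins in the endoplasmic reticulum (ER) are sensed by 3 membrane proteins, each of which heads a branch of the unfolded protein response. PERK, encoded by EIF2AK3, phosphorylates the translation factor eIF2, which slows protein synthesis but favors the translation of the transcription factor ATF4. Other kinases phosphorylate eIF2 upon amino acid shortage, double-stranded RNA or loss of heme, and the common part is the integrated stress response. IRE1, encoded by ERN1, splices the mRNA of XBP1, and the transcription factor ATF6 is carried to the Golgi and cut there by the same proteases that release the sterol-regulated SREBPs. Much of this control acts on translation, splicing or cleavage. The counts report the mRNA of each gene as a whole and resolve none of these steps.

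The reads counted on genes ranged from 13473820 to 18633764 per library. Levels are given as CPM, the reads of a gene scaled to a common library total, after TMM scaling, a normalization that assumes that most genes keep their share. A gene was called where edgeR's quasi-likelihood test gave a false discovery rate (FDR) under 0.05, adjusted across the whole tested table. Nothing in the sources says that the 3 libraries of a group came from separate cultures, so the spread between them may be technical. Among the CD libraries, replicate 3 stood apart on the second principal component (37.2, against -30.8 and -7.58 for replicates 1 and 2). Reads not counted on genes made up 41.4% of it, against 31.1% and 31.8% in the other CD libraries and 29.3% to 47.2% in the control libraries. Values without it are given beside the members' results where it changed a call or moved a value by over 1.5 times. Of the epithelial markers, KRT19 was high, with 936 ± 66.9 CPM in the control and 458 ± 77.1 CPM in the CD group (SD, n = 3), whereas the defining markers EPCAM and CDH1 were near 0, with means of at most 0.162 and 0.390 CPM. KRT8, KRT18 and the T cell gene CD3E were not found by symbol. CLDN4 had 0.603 ± 0.231 CPM in the control and 7.03 ± 1.11 CPM in the CD group. Fibroblast genes were present as well, with means of 212 (control) and 164 (CD) CPM for COL1A2, 23.5 and 12.3 for COL1A1, 2.998 and 2.89 for PDGFRA, and 0.0608 and 0.328 for DCN. The endothelial genes (PECAM1, CDH5, KDR) and the leukocyte gene PTPRC had means of at most 0.232 CPM, and CD68, a lysosomal protein of macrophages and other cells, had means of 5.45 and 19.7 CPM. The part of these markers in the results below was not tested. In bulk RNA, fewer cells that express a gene and less of its RNA per cell cannot be told apart.

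Of the 9 regulators, 3 rose with CD (ATF3, EIF2AK3 and DDIT3), 3 fell (ASNS, CHAC1 and ATF6), and 3 were not called (ATF4, ERN1 and XBP1). Among all genes tested, 47.7% were called, 24.8% as higher and 22.9% as lower, so a change as such was common in these cells, and 6 of 9 members is read against that share. The members differed from each other in direction and size, with log2 fold changes from -1.39 to 3.66. Their median was 0.36, against 0.06 for all genes tested, but it is the value of ERN1, which was not called (SE 0.38). In 6 of the 9 genes the CD and control libraries did not overlap, as was so for 58% of all genes tested. By branch, the calls were 3 higher and 2 lower of 6 in the PERK and eIF2 branch, none of 2 in the IRE1 branch, and 1 lower of 1 for ATF6. With 1 library left out, between 2 and 4 members were higher and 2 or 3 lower. There were 2 higher and 2 lower without control replicate 1 or control replicate 2, and 3 higher and 2 lower without control replicate 3. There were 4 higher and 3 lower without CD replicate 1 (ATF4 in addition) or CD replicate 3 (ERN1 in addition). The calls among all genes moved as well, to 2265 higher and 2214 lower of 12343 tested without control replicate 1 and to 3616 higher and 3606 lower of 12330 without CD replicate 3, beside 3016 and 2784 of 12148 with all libraries.

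**Figure D1:**
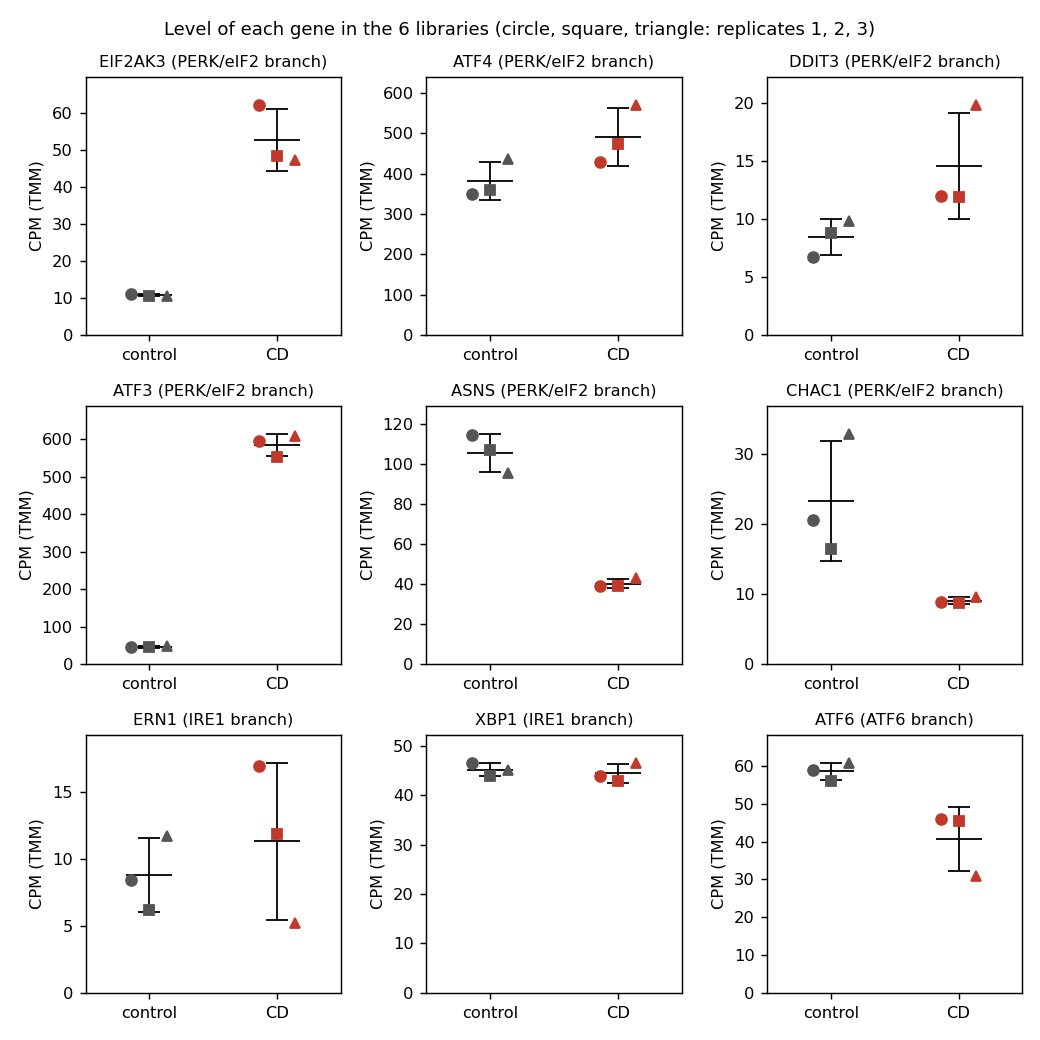
Level of each of the 9 genes in CPM after TMM scaling (vertical axes, linear and starting at 0) in control and CD libraries; points are libraries, with one symbol per replicate number, and bars are the mean ± SD of 3. ATF3 and EIF2AK3 in CD lie far above control, ASNS and CHAC1 lie below it, and ERN1 in CD spreads from 5.19 to 16.9 CPM.

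The PERK branch begins with the kinase itself. EIF2AK3 (ENSNVIG00000017566) was at 11.1, 10.6 and 10.7 CPM in control replicates 1, 2 and 3 and at 62.3, 48.4 and 47.3 CPM in the CD replicates. The control libraries were almost equal, and every CD library lay far above all of them. The mean went from 10.8 ± 0.288 to 52.7 ± 8.38 CPM (SD, n = 3 each), a 4.88-fold rise (log2 fold change 2.29, SE 0.16, FDR 2.77e-06, edgeR). Its log2 fold change stayed between 2.16 and 2.32 whichever library was omitted.

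ATF4 (ENSNVIG00000001233), the transcription factor whose translation PERK promotes, had control levels of 349.8, 358 and 436 CPM and CD levels of 429, 473 and 570.5 CPM. The groups overlapped, since control replicate 3 was above CD replicate 1. The log2 fold change was 0.36 (SE 0.14), or 1.29-fold, with a 95% interval of 0.04 to 0.68, and the FDR of 0.0594 (edgeR) missed the threshold. Of 14 alternative settings, 4 called ATF4 as higher (FDR between 0.0172 and 0.215 over all 14). With 1 library left out, its log2 fold change ran from 0.21 (without CD replicate 3) to 0.47 (without control replicate 3), and of these 6 fits the one without CD replicate 1 called it (0.47, FDR 0.0172).

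DDIT3 (ENSNVIG00000002208) encodes CHOP, a transcription factor downstream of ATF4 that is linked to cell death in prolonged ER stress. Its levels were 6.73, 8.82 and 9.81 CPM in the control libraries and 12.0, 11.8 and 19.8 CPM in the CD libraries. All CD libraries were above all control libraries, but replicate 3 was well above the other CD libraries. The log2 fold change was 0.78 (SE 0.25), or 1.71-fold with a 95% interval of 1.17 to 2.50 (FDR 0.0248, edgeR). Without CD replicate 3 the change was 0.45 on the log2 scale (FDR 0.0337), and DDIT3 was not called without control replicate 1 (0.64, FDR 0.106) or without control replicate 2 (0.80, FDR 0.0698). Its FDR ran from 0.00965 to 0.106 over the 14 settings.

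The largest change of the set was that of ATF3 (ENSNVIG00000004753), a stress-induced transcription factor of the ATF/CREB family that ATF4 induces, as do JNK and other signals. Control libraries were at 44.7, 45.0 and 49.3 CPM and CD libraries at 596, 551 and 608 CPM. Both groups were tight, with an SD of the log2 level of 0.0783 in control and 0.0742 in CD, so that the difference exceeded the spread many times over. The mean rose from 46.3 ± 2.56 to 585 ± 29.7 CPM, or 12.6-fold with a 95% interval of 10.5 to 15.2 (log2 fold change 3.66, SE 0.12, FDR 7.93e-08, edgeR). No library mattered much, as the log2 fold change lay between 3.59 and 3.70 with any of them left out.

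ASNS and CHAC1, standard targets of ATF4, went the other way. ASNS (ENSNVIG00000019745), which makes asparagine from aspartate, had 114, 107 and 95.3 CPM in the control libraries and 38.8, 39.0 and 42.8 CPM with CD. The groups were well apart, and the CD libraries differed little from each other. Its mean fell from 106 ± 9.66 to 40.2 ± 2.27 CPM, which is 2.63-fold lower (log2 fold change -1.39, SE 0.12, FDR 1.31e-05, edgeR). CHAC1 (ENSNVIG00000017260) degrades glutathione in the cytosol. The control libraries had 20.5, 16.3 and 32.8 CPM of it and the CD libraries 8.79, 8.71 and 9.58 CPM. Here the spread was in the control libraries, where replicate 3 was highest, while the CD libraries were nearly equal. CHAC1 fell by 1.37 on the log2 scale (SE 0.25, 2.58-fold lower, FDR 0.00133, edgeR), and without control replicate 3 the change was -1.03. ASNS and CHAC1 were called as lower in each of the 14 alternative settings.

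In the IRE1 branch neither gene was called. ERN1 (ENSNVIG00000023686), the sensor, measured 8.45, 6.22 and 11.7 CPM in the control libraries and 16.9, 11.8 and 5.19 CPM in the CD libraries, so CD replicate 3 was the lowest and CD replicate 1 the highest of all 6 libraries. The log2 fold change was 0.36 with an SE of 0.38 (95% interval -0.48 to 1.20, FDR 0.460, edgeR). This interval covers a fold between 0.715 and 2.30, and a change of this gene was not detectable with this spread. Without CD replicate 3, ERN1 was called as higher (log2 fold change 0.66, FDR 0.00880), and without CD replicate 1 the change was -0.034 (FDR 0.942). These are also the lowest and highest FDR over the 14 settings. XBP1 (ENSNVIG00000003976), the transcription factor made from the spliced mRNA, was measured precisely. Control libraries had 46.5, 43.8 and 45.2 CPM and CD libraries 43.8, 42.9 and 46.6 CPM. The libraries of both groups were interleaved, and the log2 fold change of -0.02 (SE 0.11, FDR 0.884, edgeR) had a 95% interval of -0.28 to 0.23 and turned to 0.0096 with upper quartile scaling. It was -0.093 without CD replicate 3. The data thus allow for XBP1 a fold between 0.824 and 1.18. The share of spliced XBP1 mRNA cannot be read from gene counts.

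ATF6 (ENSNVIG00000024214) ranged over 58.9, 56.1 and 60.7 CPM in the control libraries and over 45.9, 45.4 and 31.0 CPM in the CD libraries. All CD libraries were lower than all control libraries, with CD replicate 3 the lowest. The mean went from 58.5 ± 2.31 to 40.8 ± 8.48 CPM (SD, n = 3 each), a 1.44-fold fall (log2 fold change -0.52, SE 0.16, FDR 0.0221, edgeR). Without CD replicate 3 the change was smaller, -0.39, with an FDR of 0.00360. Without control replicate 1, 2 or 3, ATF6 was not called (FDR 0.0678, 0.0534 and 0.0827, edgeR), while the other 11 settings called it.

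**Figure D2:**
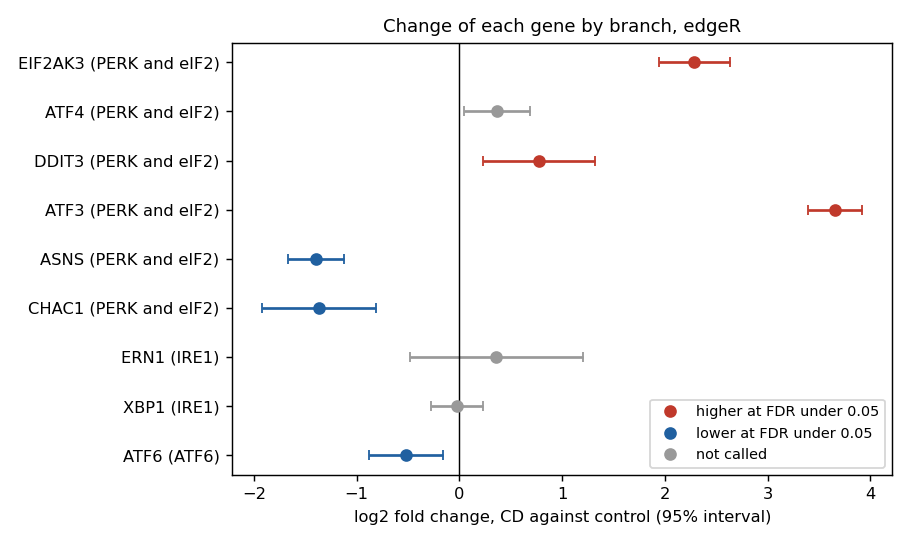
Log2 fold change of CD against control for the 9 genes (points), with the 95% interval of the edgeR fit over 3 and 3 libraries (bars), colored by the call at an FDR under 0.05. The intervals of ATF3 (3.39 to 3.92) and EIF2AK3 (1.94 to 2.64) lie far to the right of 0 and those of ASNS and CHAC1 to the left, and the interval of ERN1 is the widest.

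For any single gene, an exact permutation test over the 6 libraries gives a two-sided p of 0.1 at best. That value was reached by the 6 genes whose groups did not overlap, while the exact p was 0.2 for ATF4, 0.7 for ERN1 and 0.8 for XBP1. The adjusted values borrow the spread from all genes of the table. CD libraries varied more than control libraries, with a biological coefficient of variation of 0.214 against 0.0849. Within the CD group, replicate 3 was the library farthest from the mean for 7 of the 9 genes. It was high for ATF4, DDIT3, ASNS, CHAC1 and XBP1 and low for ERN1 and ATF6. The deviations from the CD mean on the log2 scale were largest for ERN1 (-0.97), DDIT3 (0.49) and ATF6 (-0.37). The exceptions were EIF2AK3, for which replicate 1 was farthest (0.25), and ATF3, for which it was replicate 2 (-0.08).

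**Figure D3:**
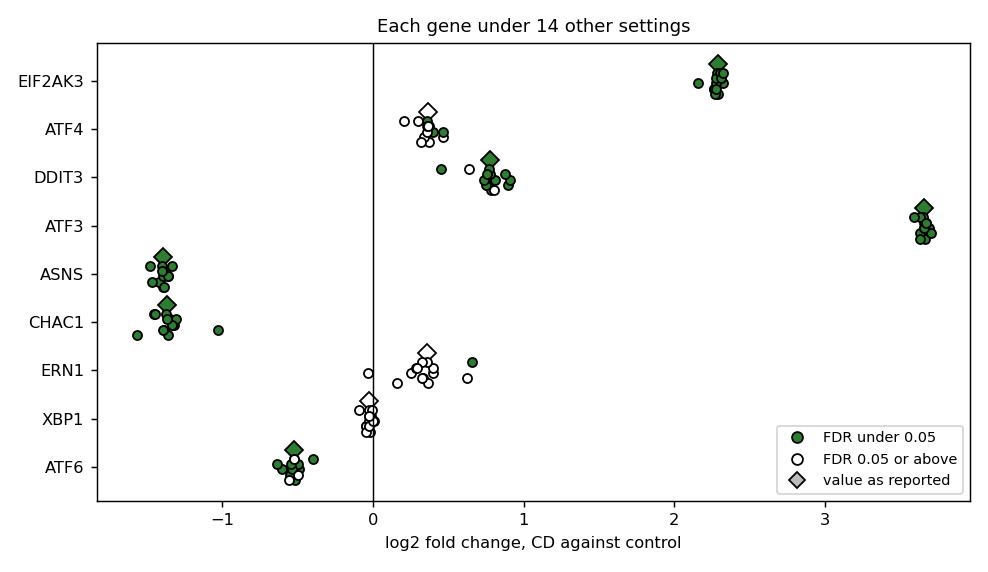
Log2 fold change of each gene (horizontal axis) as reported (diamonds) and under 14 other settings of normalization, filter, tool, block and left-out library (circles), filled where the FDR was under 0.05. EIF2AK3, ATF3, ASNS and CHAC1 are filled throughout, ATF4, DDIT3, ERN1 and ATF6 are mixed, and XBP1 is never filled.

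The genes around the 9 regulators were examined as 7 lists, written from general knowledge of the pathways. Of 104 genes listed, 93 were found and 90 tested. With CD, 14 were higher and 42 lower, that is 15.6% and 46.7%, beside 24.8% and 22.9% of all genes tested. The median log2 fold change over the 90 genes was -0.29, beside 0.06 for all genes. Across the 14 settings and at an FDR of 0.01, between 11 and 17 were higher and between 32 and 45 lower.

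The first list holds the upstream part of the integrated stress response, namely the other eIF2 kinases, a regulatory subunit of the eIF2 phosphatase, the PERK inhibitor DNAJC3, subunits of eIF2 and of its exchange factor eIF2B, and OMA1 and DELE1, which relay mitochondrial stress to EIF2AK1. Of the 13 tested, 2 rose, 3 fell and 8 were not called (median log2 fold change -0.13). That is 15.4% higher and 23.1% lower, beside 24.8% and 22.9% of all genes tested, so the share of lower genes was near that of all genes. EIF2AK4, which encodes GCN2, the kinase that senses uncharged tRNA, rose from 7.91 ± 0.904 to 14.4 ± 1.91 CPM (log2 fold change 0.87, SE 0.18, FDR 0.00305, edgeR). EIF2AK2 (PKR, the kinase activated by double-stranded RNA) fell from 10.5 ± 1.03 to 6.92 ± 1.18 CPM (-0.59, FDR 0.0274), a call lost in 4 of 14 settings, among them those without control replicate 1, control replicate 2 or CD replicate 2 (FDR 0.0139 to 0.0984 over all 14). EIF2AK1, the heme-regulated kinase, was not called (log2 fold change 0.07, FDR 0.675). The kinases of eIF2 thus did not share a direction, with EIF2AK3 and EIF2AK4 higher and EIF2AK2 lower. Among the genes that limit the response, PPP1R15B, a phosphatase subunit that restores eIF2, had a log2 fold change of -0.09 (FDR 0.669), and DNAJC3, a chaperone that inhibits PERK, one of 0.17 (FDR 0.277). PPP1R15A (GADD34) was not found by symbol and was not analysed here. EIF2B1 (listed as EI2BA), a subunit of eIF2B, fell by 0.76 on the log2 scale (SE 0.14, FDR 0.00179). The other gene that rose, OMA1, a mitochondrial protease, went from 8.41 ± 1.08 to 12.8 ± 1.10 CPM (log2 fold change 0.61, SE 0.18, FDR 0.0175) and was named after its value was seen. Without control replicate 1 or control replicate 3 the number of higher genes was 1, and EIF2AK4 was still called there.

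The targets of ATF4 that make or import amino acids were mostly lower. Of 15 tested, 10 fell and 2 rose, with a median log2 fold change of -0.84. These are 66.7% lower and 13.3% higher, beside 22.9% and 24.8% of all genes tested. PSAT1, an enzyme of serine synthesis, fell most, from 42.8 ± 0.864 to 7.67 ± 0.151 CPM (log2 fold change -2.48, SE 0.14, FDR 7.81e-07, edgeR). The increase of SLC38A2, a transporter of neutral amino acids, was the larger of the 2 rises (414 ± 27.1 to 678 ± 80.0 CPM, log2 fold change 0.71, FDR 0.00112). SLC7A11, the cystine transporter, was near the lower limit of what was tested, with 1.55 ± 0.0428 CPM in control and 1.15 ± 0.672 CPM in CD, and was not called (log2 fold change -0.41, FDR 0.392). It was called as lower without CD replicate 1 (-0.99, FDR 0.0294, the lowest of 13 settings that ran up to 0.784). Without CD replicate 2 its change was smaller, at -0.13. The higher genes numbered 1 without control replicate 2, without control replicate 3 and without CD replicate 2.

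Aminoacyl-tRNA synthetases charge tRNAs, and ATF4 induces many of them. Of 12, 8 were lower, 1 was higher and 3 were not called, with a median of -0.39. Lower genes made up 66.7% and higher genes 8.33%, beside 22.9% and 24.8% of all genes tested. MARS1 fell most, from 122 ± 11.2 to 55.8 ± 11.05 CPM (log2 fold change -1.13, FDR 2.72e-04, edgeR). NARS1, which charges tRNA with asparagine, was the member that rose, from 137 ± 11.3 to 266 ± 14.8 CPM (0.95, FDR 9.16e-05). ASNS, which makes that amino acid, was 2.63-fold lower in the same libraries. The count of lower synthetases was 3 without control replicate 1, 5 without control replicate 2 and 4 at an FDR of 0.01.

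Among 12 other targets of ATF4 and CHOP, 6 were higher and 2 lower, with a median of 0.39. Higher genes made up 50% and lower genes 16.7%, beside 24.8% and 22.9% of all genes tested. BCL2L11 (listed as B2L11), which encodes the pro-apoptotic protein BIM, rose from 6.93 ± 0.428 to 55.0 ± 14.3 CPM (log2 fold change 2.99, SE 0.21, FDR 3.10e-06, edgeR). Its groups did not overlap, which was a condition for naming it here and held for 58% of all genes tested. STC2, a secreted glycoprotein, fell from 5.60 ± 0.548 to 0.533 ± 0.232 CPM (log2 fold change -3.37, SE 0.30, FDR 1.41e-05). The CD libraries held only 13, 6 and 6 reads of STC2. DDIT4, an inhibitor of mTOR complex 1, was called as higher (0.37, FDR 0.0444), but in only 5 of the 14 other settings. Leaving out any control library, or CD replicate 2, ended the call (FDR 0.00684 to 0.217 over all 14). SESN2, another inhibitor of that complex, had a log2 fold change of -0.17 (FDR 0.474), and ATF5, a transcription factor under translational control like ATF4, one of 0.35 (FDR 0.142). CEBPB was not found by symbol and was not analysed here.

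The list with the most uniform direction was that of ER chaperones and folding enzymes, which ATF6 and XBP1 induce. Of 12 tested, 9 fell and none rose, the median log2 fold change being -0.59, and the 3 that were not called were below 0 as well (CANX -0.49, PDIA3 -0.13 and MANF -0.13, named after their values were seen). Lower genes were 75% of this list, beside 22.9% of all genes tested, where 24.8% were higher. DESeq2 and limma-voom also called none as higher, and with every change below 0 none was higher at an unadjusted p under 0.05 in edgeR. HSPA5 (BiP), the main ER chaperone and a protein that binds the 3 sensors, fell from 665 ± 54.2 to 426 ± 13.7 CPM (SD, n = 3 each; -0.64, SE 0.11, FDR 0.00113, edgeR), a call made in each of the 14 settings. PDIA4, a protein disulfide isomerase, fell most, from 925 ± 89.3 to 374 ± 12.0 CPM (-1.31, SE 0.12, FDR 1.73e-05). HSP90B1 (GRP94), the ER form of HSP90, was close to the threshold (549 ± 21.4 to 437 ± 48.7 CPM, -0.33, FDR 0.0439). It was called in 5 of 14 settings, and only without CD replicate 3 among those that left out 1 library.

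Targets of XBP1 and genes of ER-associated degradation, which returns misfolded proteins to the proteasome, were divided. Of 15 tested, 5 were lower, 2 higher and 8 not called, with a median of 0.00289, and without CD replicate 3 the higher genes numbered 4. With all libraries, 33.3% were lower and 13.3% higher, beside 22.9% and 24.8% of all genes tested. DNAJB9 (listed as DNJB9), an ER co-chaperone and a common readout of spliced XBP1, rose from 2.49 ± 0.277 to 6.48 ± 1.02 CPM (log2 fold change 1.37, SE 0.21, FDR 5.44e-04, edgeR). HERPUD1, a component of the degradation machinery, rose from 63.0 ± 8.87 to 94.4 ± 6.57 CPM (0.58, SE 0.13, FDR 0.00483). DERL3, a channel protein of the same machinery, fell from 15.3 ± 1.38 to 5.71 ± 0.984 CPM (-1.43, SE 0.19, FDR 2.04e-04). The 2 genes that rose were called in each of the 14 settings, as was DERL3.

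The last list covers other membrane-bound sensors and the proteins that process them. Of the 11 tested, 1 rose and 5 fell (median log2 fold change -0.35). That is 9.09% higher and 45.5% lower, beside 24.8% and 22.9% of all genes tested. The proteases that release both ATF6 and SREBPs were not called. MBTPS1 (site-1 protease) had 177 ± 12.9 CPM in the control and 158 ± 16.4 CPM in the CD group (log2 fold change -0.16, FDR 0.285, edgeR), and MBTPS2 (site-2 protease) at 35.04 ± 2.39 and 27.5 ± 7.02 CPM (-0.35, FDR 0.147). MBTPS2 was called as lower without CD replicate 1 (-0.55, FDR 0.0155, the lowest of 14 settings that ran up to 0.317). Without CD replicate 3 its change was smaller, at -0.23. ATF6B, the paralog of ATF6, fell from 121 ± 10.2 to 91.8 ± 8.05 CPM (-0.40, SE 0.12, FDR 0.0189), and it was not called without control replicate 1 or 3 (FDR 0.00371 to 0.0887 over the 14 settings). CREB3L2, a transcription factor cut in the Golgi like ATF6, fell most (45.7 ± 8.19 to 16.6 ± 8.33 CPM, -1.45, SE 0.33, FDR 0.00494). MAP3K5 (ASK1), a kinase between IRE1 and JNK, was the gene that rose, from 1.59 ± 0.378 to 4.03 ± 0.129 CPM (1.35, SE 0.23, FDR 0.00104). Its level was low, with 19, 28 and 25 reads in the control libraries. The number of higher genes was 2 in 5 of the 14 settings (upper quartile scaling, total counts only, the filter at 50 counts, limma-voom and without CD replicate 1).

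**Figure D4:**
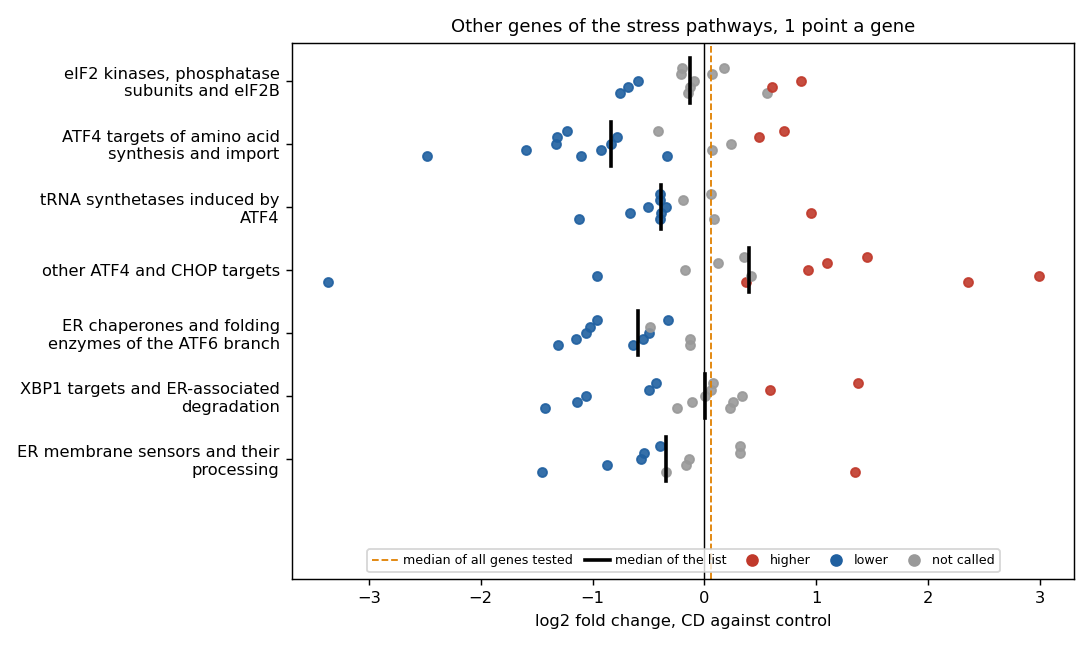
Log2 fold change of CD against control for the 90 tested genes of 7 pathway lists, 1 point per gene, colored by the call at an FDR under 0.05 in edgeR; black lines mark the median of each list and the dashed line the median of all genes tested. ER chaperones hold no higher gene, most amino acid genes and synthetases lie below 0, and other ATF4 and CHOP targets reach from -3.37 (STC2) to 2.99 (BCL2L11).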

How the data were processed

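RNA of 3 control and 3 CD libraries of Mv1Lu cells was compared. The authors deposited raw counts of reads per gene. By their methods and processing notes, poly(A) libraries (Nextera XT) were sequenced, and reads were trimmed with fastp 0.20.1 and aligned to the mink assembly with STAR 2.7.2a. The counting program and its strand setting are not given in the sources used here, so overlapping, antisense and near-identical genes are uncertain. The 4 rows that name no gene held 29.3% to 47.2% of a library's reads and were left out. The deposited normalized values were not used here, because their identifiers did not follow the order of the values.

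The gene counts then went into edgeR 4.0.16 under R 4.3.3 (filterByExpr with a minimum count of 10 and total of 15, TMM, robust glmQLFit, glmQLFTest, condition as the only term, all 6 libraries). P-values were adjusted by Benjamini-Hochberg across the tested table, with calls at 0.05. Standard errors are the log2 fold change divided by the square root of F, and 95% intervals use the t distribution of the fit. The median standard error over the tested genes was 0.18, which holds both the depth and the spread between libraries. The fits were also run on simulated counts, in which few genes changed and both groups had the same spread. In the data 47.7% of genes were called and CD libraries varied more, so that run does not give the error rate here.

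The members, lists and tests were chosen with earlier results of these data known. Named are all members, in each list the called genes with the highest and lowest change among those without overlap between groups, and a fixed set of sensors and readouts. Genes were matched by symbol, or by another symbol or the description in the table, which was decided with the counts in view. Alternatives were DESeq2 1.42.0, limma-voom (limma 3.58.1), 3 other scalings, 2 other filters, a block for the replicate number, omission of each library and, for numbers of calls, an FDR of 0.01. No sequences or coordinates of the authors' assembly were at hand, and the planned search for promoter motifs was not run.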

Additional observations from a re-analysis of the deposited data

How the results depend on the processing

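EIF2AK3, ATF3, ASNS and CHAC1 kept their call and direction under all 14 alternatives. ATF4 passed the threshold with upper quartile factors (0.40), with total counts only (0.37), without a filter (0.36) and without CD replicate 1 (0.47). Leaving out each library in turn gave log2 fold changes of 0.21 to 0.47 for ATF4, 0.45 to 0.91 for DDIT3, -0.034 to 0.66 for ERN1, -0.093 to -0.0011 for XBP1 and -0.64 to -0.39 for ATF6. ERN1 reversed without CD replicate 1 (-0.034), XBP1 with upper quartile factors (0.0096), PPP1R15B without control replicate 3 (0.0064) and EIF2AK1 without CD replicate 3 (-0.050), none of them called there. Over the omitted libraries PPP1R15B ranged from -0.24 to 0.0064 and EIF2AK1 from -0.050 to 0.13. At an FDR of 0.01, 2006 genes were called as higher and 2036 as lower. The cause of these changes was not tested. Leaving out a library alters both the number of libraries and which ones remain in the fit. The median log2 fold change of all genes was between 0.04 and 0.09 over the other scalings. Libraries with the same replicate number did not deviate together (correlations of -0.02, -0.33 and -0.18), and no CD library correlated best with the control of its own number. The block by replicate gave 3 higher and 3 lower members and 13 higher and 40 lower list genes, and in it HSP90B1 and DDIT4 were not called (FDR 0.0981 and 0.0846). SLC6A9, FGF21 and ERN2 fell under the filter on low counts of the reported fit. The promoter motif search was not run.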
